A study of Mus musculus with 7 samples.

Results

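RNA inside extracellular vesicles (EVs) was compared between macrophage lines without and with active Dis3l2. The comparison uses 5 of the 7 libraries of the study, all read from vesicles of the mouse macrophage line RAW264.7. The 3 libraries without active Dis3l2 came from cells with a hairpin against Dis3l2 (shDis3l2), from shDis3l2 cells with an empty vector (Vector), and from shDis3l2 cells with a catalytically inactive transgene (D389N). The 2 libraries with active Dis3l2 came from cells with a non-silencing hairpin (shNS) and from shDis3l2 cells with a hairpin-resistant transgene (Dis3l2r). Every line was grown with doxycycline, and vesicles were banded on sucrose and exposed to micrococcal nuclease, an enzyme that digests nucleic acid not enclosed by a membrane. The class was assigned from the genotype, and no label states Dis3l2 activity in a line. Since there is 1 library per genotype, a class groups genotypes rather than replicates. Each p-value below sets the classes against differences between genotypes, not between replicates. The remaining 2 libraries are whole-cell RNA of the shDis3l2 and shNS lines.

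Dis3l2 is an exoribonuclease that digests RNA from its 3' end and prefers RNAs that carry added uridines, such as the uridylated let-7 precursor. It also takes part in the surveillance of structured non-coding RNAs, including tRNAs and small nuclear RNAs that were not processed correctly. Some tRNA genes hold a short intron that must be cut out of the precursor, and in mouse these belong to a few anticodon families. 4.5S RNA is a small rodent RNA made by RNA polymerase III, related to the SINE repeats that lie in many copies in the genome, and the table does not say which of the rodent 4.5S RNAs its row holds. The question set by the design is which of these RNAs differ in vesicles when active Dis3l2 is missing.

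The table has 3894 rows for whole RNAs: 3639 Ensembl transcripts, 224 tRNA rows not named as spliced, 15 spliced tRNA rows, 15 SINE rows and 1 row for 4.5S RNA. It also has 232768 intron rows, 210777 exon rows and 133400 UTR rows, each a piece of a transcript, and 3634 of the UTR rows repeat a whole transcript. Counts on whole-RNA rows came to 18428621 in shDis3l2, 25177102 in Vector and 20950531 in D389N vesicles, against 23667929 in shNS and 13439408 in Dis3l2r vesicles. Levels below are scaled CPM, that is, counts per 1000000 of a library size adjusted with TMM (trimmed mean of M values). Of the 3639 transcript IDs, 0 could be paired with a gene name, so Dis3l2 itself, macrophage markers and symbol lists could not be checked. In a bulk measure, fewer vesicles with an RNA and less of it per vesicle cannot be told apart.

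4.5S RNA was the second most abundant whole-RNA row and took a larger share of every library without active Dis3l2. It made up 6.69% of whole-RNA counts in shDis3l2, 6.26% in Vector and 8.30% in D389N vesicles, against 4.78% in shNS and 5.06% in Dis3l2r vesicles. The classes did not overlap, with means of 7.08% ± 1.08 (SD, n = 3) without and 4.92% ± 0.198 (SD, n = 2) with active Dis3l2. The exact two-sided permutation test of this share gave p = 0.1, which is the smallest that 3 against 2 libraries allow. The exact binomial 95% intervals of the single shares, which cover counting error only, reached from 6.25% to 8.31% without and from 4.77% to 5.07% with active Dis3l2. Leaving out each library in turn kept the log2 ratio of the mean shares between 0.40 and 0.61.

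As a level, 4.5S RNA stood at 66741, 64403 and 99118 scaled CPM in shDis3l2, Vector and D389N vesicles, against 45984 in shNS and 42912 in Dis3l2r vesicles. The D389N library was highest and the classes did not overlap. The log2 fold change was 0.79 ± 0.35 (SE), with an adjusted p of 0.661 in edgeR's quasi-likelihood test, so it did not pass the threshold of 0.05. In whole cells the same RNA held 0.0865% of whole-RNA counts in shDis3l2 and 0.195% in shNS, the opposite order to the vesicles of these 2 lines. These are 1 library each and were not tested.

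**Figure D1:**
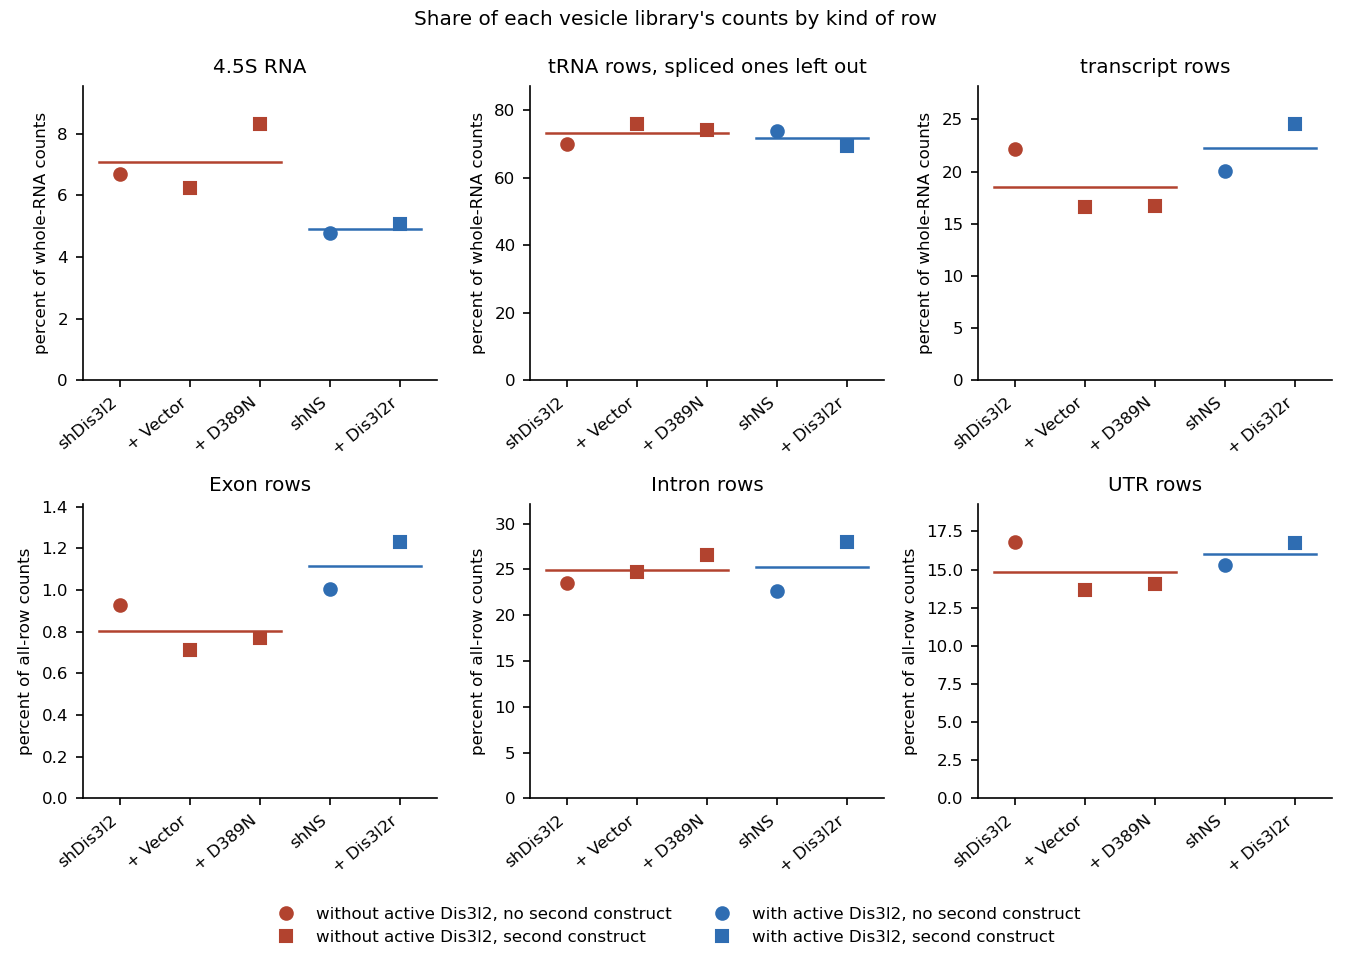
Share of each vesicle library's counts (y axis, percent) held by 4.5S RNA, tRNA rows (spliced ones left out) and transcript rows (of whole-RNA counts) and by exon, intron and UTR rows (of the counts of all rows). Points are libraries, lines are class means, red is without and blue with active Dis3l2; 4.5S RNA is higher (6.26% to 8.30% against 4.78% to 5.06%) and exon rows are lower without active Dis3l2, while the other 4 kinds overlap.

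For the 4 tRNA families with an intron, the TMM-scaled sums of the unspliced rows lay higher without overlap in vesicles without active Dis3l2. Of the 4, 0 passed the test. Among all 51 unspliced sums per anticodon, 11 were higher and 0 lower without overlap, these 4 included. The sums of their spliced rows overlapped. These families are Ile-TAT, Arg-TCT, Leu-CAA and Tyr-GTA, and unspliced here means a row not named as spliced. Whether each such row, or the reads counted on it, holds the intron could not be checked. Unspliced Ile-TAT summed to 1643, 1542 and 1049 scaled CPM in shDis3l2, Vector and D389N vesicles, against 783 in shNS and 682 in Dis3l2r vesicles. All 3 libraries without active Dis3l2 lay above both with it. The log2 fold change was 0.95 ± 0.44 (SE), with an edgeR adjusted p of 0.752.

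Unspliced Tyr-GTA stood at 356, 334 and 337 in shDis3l2, Vector and D389N vesicles, against 226 in shNS and 195 in Dis3l2r vesicles. Its 3 libraries without active Dis3l2 lay close together. Unspliced Arg-TCT stood at 242, 213 and 145 in the same order, against 121 in shNS and 125 in Dis3l2r vesicles, so the D389N library came near the class with active Dis3l2. Unspliced Leu-CAA stood at 602, 863 and 1095, against 534 in shNS and 599 in Dis3l2r vesicles, so the shDis3l2 library was nearly level with Dis3l2r. Their log2 fold changes were 0.70, 0.70 and 0.59, and none of the 4 families passed the test. Under whole-RNA totals in place of TMM, Ile-TAT and Tyr-GTA still did not overlap between classes, while Arg-TCT and Leu-CAA did. Among all 51 unspliced sums per anticodon, 5 were then higher and 1 lower without overlap.

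The spliced sums of the same families had log2 fold changes between -0.38 and 0.35. Spliced Ile-TAT was at 389.1, 310.8 and 284.6 in shDis3l2, Vector and D389N vesicles, against 557.8 in shNS and 298.2 in Dis3l2r vesicles. Spliced Tyr-GTA was at 678, 445 and 198, against 691 in shNS and 232 in Dis3l2r vesicles. In both families shNS was the highest library and the classes overlapped.

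The unspliced share of a family needs no scaling between libraries. In Ile-TAT it was 80.9%, 83.2% and 78.7% in shDis3l2, Vector and D389N vesicles, against 58.4% in shNS and 69.6% in Dis3l2r vesicles. The classes did not overlap, with means of 80.9% ± 2.28 (SD, n = 3) and 64.0% ± 7.91 (SD, n = 2), and the exact two-sided permutation p was 0.1, the smallest possible. In Tyr-GTA the share was 34.4%, 42.8% and 62.9% without, against 24.7% and 45.6% with active Dis3l2, and the classes overlapped. Leu-CAA at 9.49%, 11.2% and 16.5% against 8.24% and 14.4%, and Arg-TCT at 6.34%, 5.59% and 6.01% against 2.63% and 6.10%, overlapped as well. Without shNS the log2 ratio of the mean Arg-TCT shares was -0.03.

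**Figure D2:**
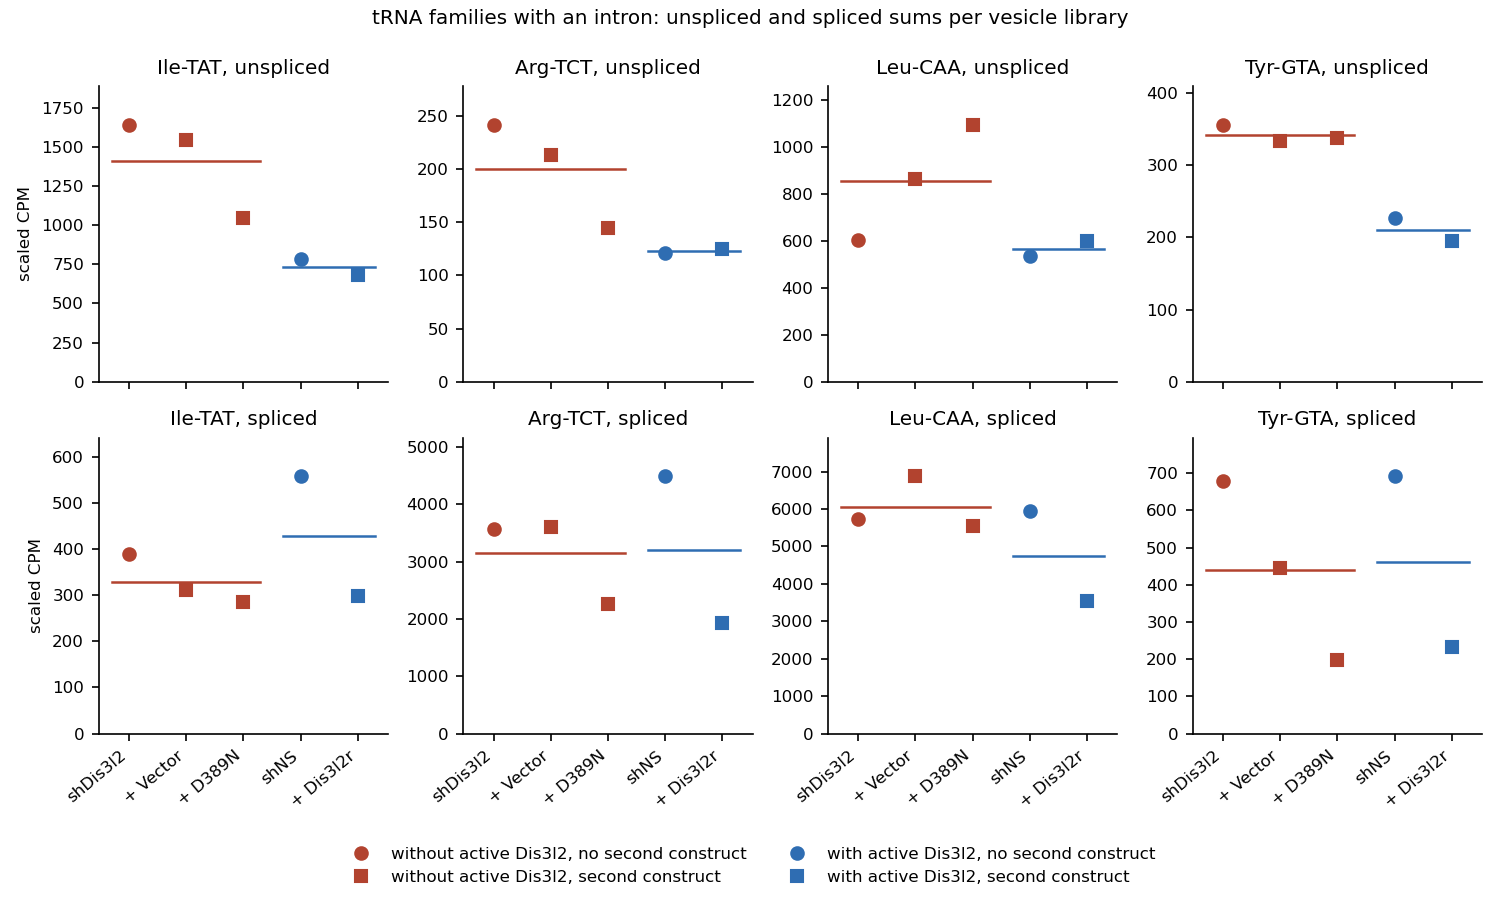
Summed scaled CPM (y axis, TMM) of the unspliced rows (top) and spliced rows (bottom) of the 4 tRNA families with an intron, by vesicle library; lines are class means, red is without and blue with active Dis3l2. Each unspliced sum is higher in all 3 libraries without active Dis3l2, with Ile-TAT at 1049 to 1643 against 682 to 783, while each spliced sum overlaps between classes.

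Row by row, the table has 24 unspliced rows in these families, and 22 passed the filter on low counts. Of the 22, 19 had a log2 fold change above 0 and 11 lay above both libraries with active Dis3l2 in all 3 libraries without it, while 0 lay below. For comparison, 13% of the 561 whole-RNA rows tested were higher and 18.4% were lower without overlap, and 0.178% of the 561 were called by edgeR. The median log2 fold change was 0.65 in the 22 rows and 0.08 over all 561 rows. Under whole-RNA totals 4 of the 22 rows stayed higher without overlap, beside 32 of all 561. Under totals of all rows 5 of the 22 did, beside 36 of all 561. The median of all whole-RNA rows moved to -0.15 under whole-RNA totals.

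tRNA-Ile-TAT-1-1 stood at 877, 907 and 586 scaled CPM in shDis3l2, Vector and D389N vesicles, against 385 in shNS and 323 in Dis3l2r vesicles, a log2 fold change of 1.16 ± 0.43 (SE) with an edgeR adjusted p of 0.661. tRNA-Tyr-GTA-1-4 stood at 41.2, 39.4 and 39.6, against 18.7 in shNS and 20.1 in Dis3l2r vesicles, with a log2 fold change of 1.05 ± 0.44 and the same adjusted p. Neither row overlapped between classes, and D389N was the lowest of the 3 libraries without active Dis3l2 for tRNA-Ile-TAT-1-1. tRNA copies of 1 family are near-identical, and how the authors' counting divided reads among them is not given in the sources used here.

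Within pairs of libraries, the 22 rows were above 0 on the log2 scale in 19 cases for shDis3l2 over shNS, 21 for Vector over Dis3l2r and 17 for D389N over Dis3l2r. The last 2 comparisons share the Dis3l2r library. Median log2 ratios were 0.55, 0.82 and 0.36. In the 173 tested tRNA rows of families without an intron, 67, 147 and 144 rows were above 0 in the same 3 pairs, with medians of -0.10, 0.51 and 0.51. So in shDis3l2 over shNS the unspliced rows of the families with an intron were mostly above 0, while most rows of the other families were not. That difference was not tested. Under whole-RNA totals the 3 medians of the 22 rows were 0.50, 0.56 and -0.14, so that of D389N over Dis3l2r changed sign.

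Over all tRNA, vesicles without active Dis3l2 were not set apart. tRNA rows other than the spliced ones made up 69.9%, 75.8% and 74.1% of whole-RNA counts in shDis3l2, Vector and D389N vesicles, against 73.8% in shNS and 69.5% in Dis3l2r vesicles. The classes overlapped (exact two-sided permutation p = 0.5). Spliced tRNA rows made up between 0.693% and 1.09% without, and 0.708% and 1.22% with active Dis3l2. Of the 195 tested tRNA rows other than the spliced ones, 161 had a log2 fold change above 0. Without overlap under TMM, 39 were higher and 3 lower, beside 13% higher and 18.4% lower of all 561 whole-RNA rows. That count rests on the scaling, since 16 were higher and 5 lower under whole-RNA totals. Of all 561 rows, 32 were higher and 124 lower without overlap under whole-RNA totals.

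The sums per isotype, that is, per amino acid carried, gave 0 calls among 23 at an adjusted p under 0.05 in edgeR, 0 at an unadjusted p under 0.05, and 0 with DESeq2 and with limma-voom. So 0% were called, and 4.35% were higher and 0% lower without overlap. The sum without overlap was serine, at 20083, 27596 and 36766 scaled CPM in shDis3l2, Vector and D389N vesicles, against 16035 in shNS and 18193 in Dis3l2r vesicles. Its log2 fold change was 0.72 ± 0.40 (SE), with an edgeR adjusted p of 0.924, and under whole-RNA totals its classes overlapped. Among serine anticodons, Ser-GCT (8603, 13146 and 8792 against 6842 and 6346) and Ser-AGA (1047, 1335 and 795 against 714 and 554) did not overlap. Ser-TGA overlapped: shDis3l2 at 4812 and Vector at 5327 lay under Dis3l2r at 5672, while D389N reached 15998. Ser-CGA (5586, 7743 and 11153 against 4878 and 5612) and Ser-GGA (35.0, 43.8 and 27.0 against 29.0 and 9.72) overlapped as well. Of all 55 sums per anticodon, 20% were higher and 0% lower without overlap under TMM.

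The initiator methionine sum, iMet, the tRNA that starts translation, stood at 31460.4, 47235 and 68668 in shDis3l2, Vector and D389N vesicles, against 22104 in shNS and 37699.8 in Dis3l2r vesicles. Each was higher within its own pair, but shDis3l2 lay under Dis3l2r and the classes overlapped. The log2 fold change was 0.72 ± 0.37 (SE), with an edgeR adjusted p of 0.924. Glycine tRNA, the isotype with the most counts, stood at 237827, 220980.0 and 186242, against 207479 in shNS and 159147 in Dis3l2r vesicles. Most of it was tRNA-Gly-TCC-1-1, the most abundant whole-RNA row, at 200228, 178809 and 136782 against 172199 and 125947. Asparagine tRNA stood at 2446, 2634 and 1583, against 3358 in shNS and 1275 in Dis3l2r vesicles, so the highest and the lowest library both had active Dis3l2.

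Across isotypes the pairs of libraries differed. Under TMM and relative to shNS, 16 of 23 isotype sums were below 0 on the log2 scale in shDis3l2, with a median log2 ratio of -0.15. Relative to Dis3l2r, 19 were above 0 in Vector and 23 in D389N, with medians of 0.47 and 0.59. The Dis3l2r library is shared by the last 2 comparisons and is also the least deep. TMM factors were lowest in D389N, at 0.838, and highest in Dis3l2r, at 1.18. Under whole-RNA totals the 3 medians were -0.20, 0.19 and 0.09, and 13 of 23 sums were above 0 in D389N. The median log2 fold change of the 23 sums between classes was 0.23 under TMM, 0.04 under totals of all rows and -0.0017 under whole-RNA totals. The part of depth was not tested.

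**Figure D3:**
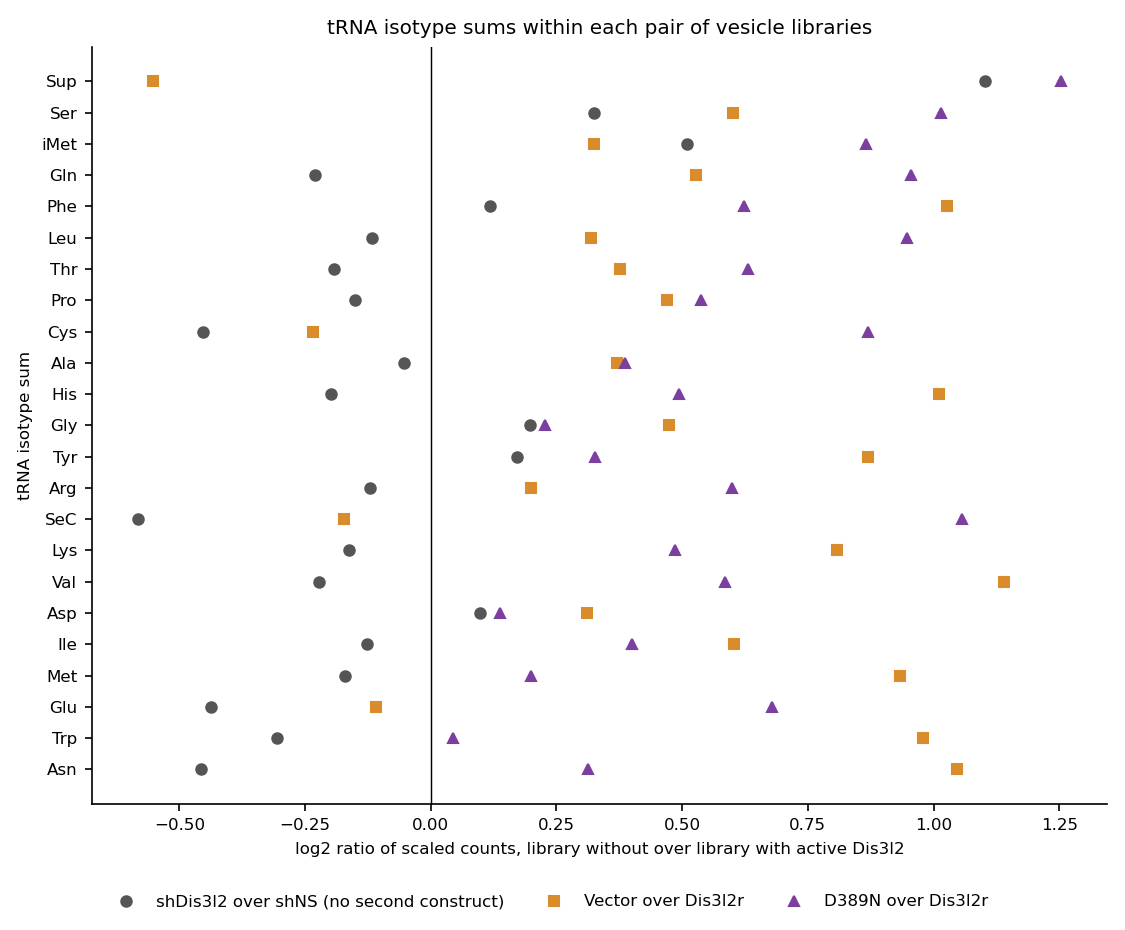
log2 ratio of TMM-scaled counts (x axis) of each tRNA isotype sum (y axis, ordered by fold change between classes) within 3 pairs of vesicle libraries: shDis3l2 over shNS, Vector over Dis3l2r and D389N over Dis3l2r. Circles lie below 0 for 16 of 23 sums, while all 23 triangles and 19 of 23 squares lie above 0; under whole-RNA totals 13 and 18 do.

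The sums per anticodon gave 0 calls among 55 in edgeR, 1 at an unadjusted p under 0.05, and 0 with DESeq2 and with limma-voom. So 0% were called, and 20% were higher and 0% lower without overlap under TMM. These 11 were the 4 families with an intron, Ser-AGA, Ser-GCT, Leu-TAG, Val-TAC, Arg-CCT, Gly-ACC and Sup-TCA, the last with levels under 1. Leu-TAG stood at 12077, 13903 and 18645 without, against 10729.7 and 9389 with active Dis3l2. Under whole-RNA totals 5 unspliced sums stayed higher without overlap and 1 was lower.

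Single tRNA rows with the smallest p-values did not pass the test. tRNA-Ala-AGC-8-1 stood at 143, 262 and 171 scaled CPM in shDis3l2, Vector and D389N vesicles, against 65.7 in shNS and 59.0 in Dis3l2r vesicles. Its log2 fold change was 1.62 ± 0.47 (SE), with an adjusted p of 0.367 in edgeR and 0.0263 in DESeq2, the lowest of its 15 alternatives, which reached up to 0.993. tRNA-Thr-AGT-7-1 stood at 41.4, 42.8 and 6.95, against 1.34 in shNS and 7.13 in Dis3l2r vesicles, with an edgeR adjusted p of 0.367. D389N lay at the level of Dis3l2r, and without the D389N library the edgeR adjusted p was 0.0117; over its alternatives it ranged from 0.000169 to 0.993.

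SINE rows, which stand for repeat families, held between 0.154% and 0.241% of whole-RNA counts in both classes. Of 11 rows tested, 3 were higher and 2 lower without overlap, beside 13% higher and 18.4% lower of all whole-RNA rows, and 0 were called by edgeR, DESeq2 or limma-voom; 0 had an unadjusted p under 0.05 in edgeR. SINE_B2 stood at 246, 208 and 164 scaled CPM in shDis3l2, Vector and D389N vesicles, against 158 in shNS and 149 in Dis3l2r vesicles. SINE_B2_Mm2 stood at 6.55, 9.45 and 11.4, against 3.98 in shNS and 5.36 in Dis3l2r vesicles. The 2 rows named SINE_B1_Mus2 differed in overlap: the first stood at 501.9, 431.5 and 551.6 against 335.7 and 388.6, and the second at 749, 1423 and 2095 against 958 and 1372, with overlap. RSINE1 and SINE_B1_Mm, both under 5 scaled CPM, were lower without overlap. Under whole-RNA totals 1 SINE row was higher and 2 were lower without overlap, beside 32 higher and 124 lower of all 561 whole-RNA rows.

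Transcript rows leaned the other way from tRNA rows. Their share of whole-RNA counts was 22.2%, 16.6% and 16.7% in shDis3l2, Vector and D389N vesicles, against 20.0% in shNS and 24.5% in Dis3l2r vesicles, with overlap (exact two-sided permutation p = 0.3). Of 340 transcript rows tested, 213 had a log2 fold change below 0, with a median of -0.36. Lower without overlap were 98 and higher 30, beside 18.4% lower and 13% higher of all 561 whole-RNA rows. Within pairs the median log2 ratio was 0.02 for shDis3l2 over shNS, -0.63 for Vector over Dis3l2r and -0.40 for D389N over Dis3l2r, where the last 2 share Dis3l2r.

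One transcript row was called by edgeR. ENSMUST00000082807 had 1 count in shDis3l2 and 0 in Vector and D389N vesicles, against 111 in shNS and 105 in Dis3l2r vesicles. It was all but absent without active Dis3l2 and present in both libraries with it. This row passed the filter on low counts only through the class with active Dis3l2, so its fold change and call are a description. The pooled log2 ratio was -8.33, with a 95% counting interval of -13.65 to -5.84. The fitted log2 fold change was -7.92 ± 1.10 (SE), with an edgeR adjusted p of 0.00244. In whole cells it had 45 counts in shDis3l2 and 1617 in shNS, so the order was the same there. Adjusted p exceeded the threshold in 4 alternatives: 0.117 when adjusted with intron, exon and UTR rows, 0.102 with limma-voom, 0.0510 without Dis3l2r and 0.185 without Vector; over all alternatives it ranged from 4.8e-08 to 0.185.

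ENSMUST00000083988 was the transcript row with the most counts. It stood at 34258, 21451 and 39633 scaled CPM in shDis3l2, Vector and D389N vesicles, against 51314 in shNS and 70372 in Dis3l2r vesicles. The classes did not overlap, but the log2 fold change of -0.94 ± 0.36 (SE) had an edgeR adjusted p of 0.661. Whole cells had the opposite order, with 1.49e+07 counts on this row in shDis3l2 and 7.15e+06 in shNS, 1 library each and not tested. ENSMUST00000082474 stood at 5.47, 8.26 and 3.99, against 1.06 in shNS and 1.51 in Dis3l2r vesicles, with a log2 fold change of 2.20 ± 0.66 and an edgeR adjusted p of 0.377.

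**Figure D4:**
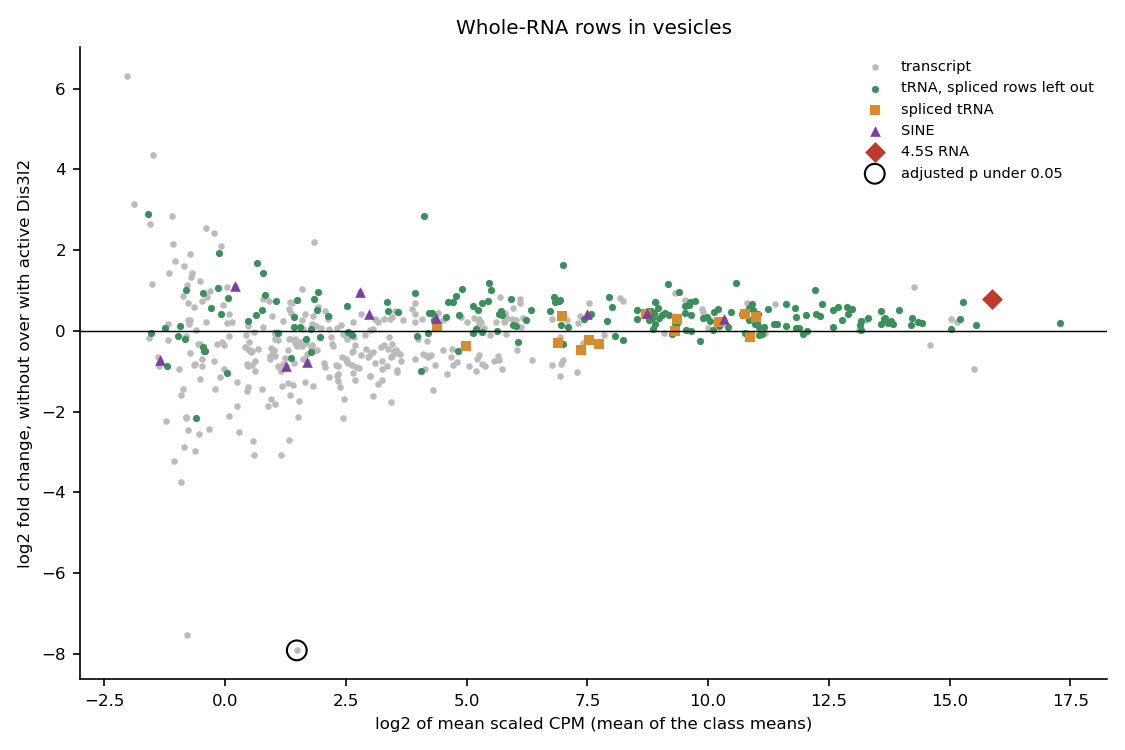
log2 fold change without over with active Dis3l2 (y axis) against the log2 of mean scaled CPM (x axis) for the 561 whole-RNA rows tested, coloured by kind of row; the open circle marks the row with an edgeR adjusted p under 0.05. 4.5S RNA lies at 0.79 at the right, tRNA rows other than the spliced ones lie mostly above 0 (161 of 195) and transcript rows mostly below 0 (213 of 340).

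Intron rows together held 23.5%, 24.7% and 26.6% of the counts of all rows in shDis3l2, Vector and D389N vesicles, against 22.6% in shNS and 28.0% in Dis3l2r vesicles, with overlap. They were spread over fewer introns without active Dis3l2. At an equal total of 24853200 counts over all rows, 67237, 64724 and 53297 intron rows had a count in shDis3l2, Vector and D389N vesicles, against 82032 in shNS and 95900 in Dis3l2r vesicles. The classes did not overlap, with means of 61753 ± 7430 (SD, n = 3) and 88966 ± 9806 (SD, n = 2), and the exact two-sided permutation p was 0.1, the smallest possible. At an equal total of 6950066 intron counts, which removes the difference in share, the numbers were 68217, 65578 and 53487 against 83428 and 95900, and without thinning 68526, 67757 and 54653 against 84721 and 95900. At the equal total of all rows, exon rows (19623, 18931 and 11341 against 22193 and 24515) and UTR rows (18447, 18801 and 14541 against 20511 and 23363) had the same order. The number of tRNA rows found, spliced ones left out, overlapped, at 205, 214 and 207 against 208 and 204. For intron rows, whole cells had the opposite order: 115493 had an unrounded count above 0 in shDis3l2, against 19433 in shNS. Exon rows (19766 against 6227) and UTR rows (22185 against 6843) did so too. These are 1 library each, were not thinned and were not tested.

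Of 232768 intron rows, 43963 passed the filter, and 30139 of those had a log2 fold change below 0, with a median of -0.55. Lower without overlap were 22% and higher 4.63%. edgeR called 0% at an adjusted p under 0.05, against 499 higher and 1819 lower at an unadjusted p under 0.05. DESeq2 called 132 and limma-voom 1. Without Dis3l2r the median log2 fold change was 0.03 over the 65371 rows then tested, and edgeR called 192 rows, 141 higher and 51 lower. Without shNS the median was -0.90 over 65574 rows and 266 were called, 82 higher and 184 lower. Both of these fits leave 1 library with active Dis3l2, which is assumed to vary like the libraries without it. With library sizes and TMM taken from the intron rows themselves the median was -0.15.

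Split by mean level over the 5 vesicle libraries, thinly covered and well covered introns differed. The 48972 rows up to 0.1 scaled CPM summed to 2039.6, 2063 and 743 in shDis3l2, Vector and D389N vesicles, against 3352 in shNS and 3966 in Dis3l2r vesicles. The 44993 rows above that and up to 0.3 summed to 6831, 4975 and 6309.8, against 8711 in shNS and 13669 in Dis3l2r vesicles. Neither bin overlapped between classes, while from 0.3 to 100 the classes overlapped. The 163 rows above 100 summed to 286032, 311846 and 407053, against 240414 in shNS and 259257 in Dis3l2r vesicles, higher without overlap, at a log2 ratio of 0.42 (exact two-sided permutation p = 0.2).

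Several of the intron rows with the most counts followed a whole-RNA row library by library. Intron_ENSMUST00000216816.1_1, the intron row with the most counts, stood at 50006, 49547 and 77996 scaled CPM in shDis3l2, Vector and D389N vesicles, against 33596 in shNS and 33363 in Dis3l2r vesicles. Its counts were 0.731 to 0.813 times those of the 4.5S row in all 7 libraries of the study. Intron_ENSMUST00000148743.1, second by counts, had 1.00 to 1.01 times the counts of tRNA-iMet-CAT-1-1. Among the 20 intron rows with the most counts, which hold 57.9% of the scaled counts on introns, 8 had a whole-RNA row whose ratio to them varied with an SD under 0.1 on the log2 scale over the 7 libraries. These 8 followed 4.5S RNA and tRNAs, so intron counts at high coverage are not independent of the whole-RNA rows. The closest row was picked after its values were seen, and the ratio is a description.

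Intron rows with the smallest p-values had counts in 1 class alone. Intron_ENSMUST00000174155.7_0 had 0 counts in all 3 libraries without active Dis3l2, against 381 in shNS and 299 in Dis3l2r vesicles, and so was at least 339-fold lower, taking 3 counts over the class as the floor. Its edgeR adjusted p was 0.250. Intron_ENSMUST00000120904.7_0 went the other way, with 137, 183 and 159 counts in shDis3l2, Vector and D389N vesicles and 0 in shNS and Dis3l2r vesicles. It was at least 107-fold higher, with an edgeR adjusted p of 0.259. Of the 43963 tested intron rows, 782 had no count in any library without and 734 had none in either library with active Dis3l2. Such rows passed the filter only through the class with counts, and the classes hold 3 and 2 libraries. These numbers are therefore a description and do not compare the classes.

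**Figure D5:**
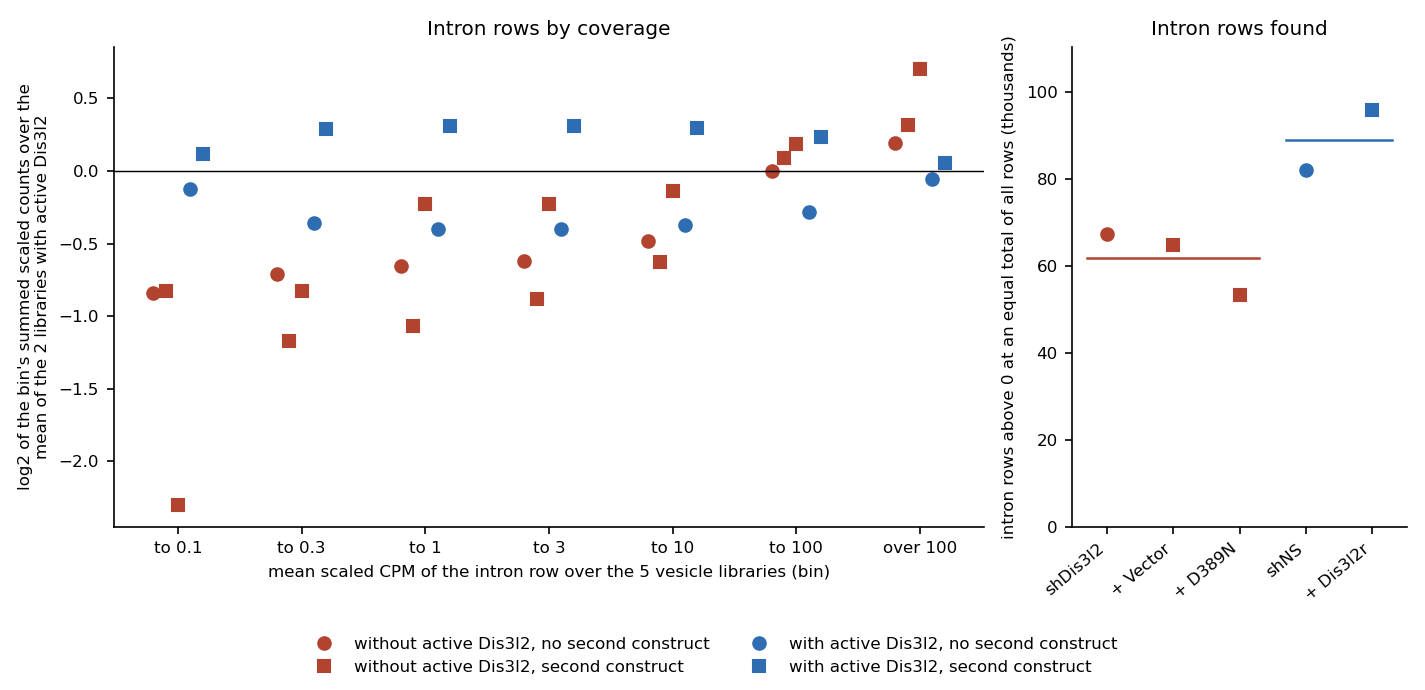
Left, summed scaled counts of intron rows in bins of mean coverage (x axis) as a log2 ratio to the mean of the 2 libraries with active Dis3l2 (y axis), for each vesicle library; right, intron rows with a count at an equal total of all rows. Libraries without active Dis3l2 (red) lie under both with it (blue) in the 2 thinnest bins, above both in the bin over 100, and at 53297 to 67237 against 82032 to 95900 rows found.

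Exon rows held a smaller share of the counts without active Dis3l2. The share was 0.927%, 0.713% and 0.770% of all rows in shDis3l2, Vector and D389N vesicles, against 1.01% in shNS and 1.23% in Dis3l2r vesicles. The classes did not overlap, with means of 0.803% ± 0.111 (SD, n = 3) and 1.12% ± 0.158 (SD, n = 2), and the exact two-sided permutation p was 0.1, the smallest possible. Leaving out each library in turn kept the log2 ratio of the mean shares between -0.61 and -0.32.

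The sum of the exon rows with the most counts had the same order, and 5 of its 7 rows did singly. Of all 6012 exon rows tested, 9.03% were lower and 8.72% higher without overlap. The 7 rows above 100 scaled CPM summed to 2238, 1688 and 2465 in shDis3l2, Vector and D389N vesicles, against 3515 in shNS and 4174 in Dis3l2r vesicles, lower without overlap (exact two-sided permutation p = 0.1). Exon_ENSMUST00000099047.3_2 stood at 558, 408 and 652, against 1003 in shNS and 1239.6 in Dis3l2r vesicles, a log2 fold change of -1.06 ± 0.24 (SE). Exon_ENSMUST00000099683.1_3 stood at 659, 537 and 721, against 1117 in shNS and 1313 in Dis3l2r vesicles, a log2 fold change of -0.93 ± 0.21. Another of the 5 rows is a piece of the same transcript, so the 5 are not separate RNAs. The 2 rows that overlapped, Exon_ENSMUST00000177796.1 and Exon_ENSMUST00000156618.8_5, had log2 fold changes of 0.19 and 0.28. The edgeR adjusted p was 0.998 for both of the lower rows given, and limma-voom called 9 exon rows, all lower. In whole cells those 2 lower rows ran the other way and far further, with 57802 and 93185 counts in shDis3l2 against 26 and 39 in shNS cells.

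Over all 6012 exon rows tested, 8.72% were higher and 9.03% lower without overlap. edgeR called 0%, with 97 higher and 129 lower at an unadjusted p under 0.05, while DESeq2 called 6 rows. The exon row with the smallest p, Exon_ENSMUST00000215472.1, was higher, with 140, 92 and 48 counts in shDis3l2, Vector and D389N vesicles. It had 0 counts in shNS and Dis3l2r vesicles, and an edgeR adjusted p of 0.365. Of the 6012 tested exon rows, 103 had no count in any library without active Dis3l2, and 371 had none in either library with it. Such rows, Exon_ENSMUST00000215472.1 among them, passed the filter only through the class with counts. Their values are therefore a description and do not compare the classes. The median log2 fold change over the tested exon rows was 0.05. Rows up to 10 scaled CPM summed to 11711, 9164 and 11892 in shDis3l2, Vector and D389N vesicles, against 10584 in shNS and 13187 in Dis3l2r vesicles, with overlap. Rows above 10 summed to 4022, 2876 and 3794, against 5261 and 6093, lower without overlap.

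UTR rows held 16.8%, 13.6% and 14.0% of all counts in shDis3l2, Vector and D389N vesicles, against 15.3% in shNS and 16.7% in Dis3l2r vesicles, with overlap (exact two-sided permutation p = 0.5). Of 10945 rows tested, 10.2% were higher and 9.25% lower without overlap, and edgeR called 0.00914%, that is 1 row. UTR_ENSMUST00000220380.1 had 0 counts in all 3 libraries without active Dis3l2, against 833 in shNS and 523 in Dis3l2r vesicles. It was at least 676-fold lower, with the floor again 3 counts over the class, and its edgeR adjusted p was 0.0327. Whole cells of both lines had 0 counts on it. The call was lost without shDis3l2, without Vector and without D389N, and when adjusted over all kinds of rows or limited to rows with at least 100 counts; over all alternatives the adjusted p ranged from 2e-22 to 0.741. UTR_ENSMUST00000103203.7_2 went the other way, with 164, 216 and 167 counts in shDis3l2, Vector and D389N vesicles and 0 in shNS and Dis3l2r vesicles. It was at least 122-fold higher, but its edgeR adjusted p was 0.127. Of the 10945 tested UTR rows, 156 had no count in any library without active Dis3l2, and 438 had none in either library with it. Such rows, both UTR rows named here among them, passed the filter only through the class with counts. Their fold changes and p-values are therefore a description and do not compare the classes. The median over the 301 tested UTR rows that repeat a whole transcript was -0.31, and over the other 10644 it was 0.23.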

How the data were processed

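Per-row estimated counts were deposited by the authors in 1 table, unscaled. The submitters' processing notes name Salmon, Novoalign, UMI-tools and cutadapt and the builds GRCm38 and mm10. No source used here gives tool versions, the order of steps or strand use. Per the labels' protocols, cDNA was primed by template switching with a group II intron reverse transcriptase, and rRNA depletion is stated for whole-cell RNA. Of the table's columns, 9 map to no sample and hold no values.

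Expected counts were rounded and fitted with edgeR 4.0.16 (quasi-likelihood, filterByExpr, TMM and library sizes from whole-RNA rows, 3 residual degrees of freedom), with p-values adjusted by Benjamini-Hochberg within each kind of row. The scripts were tested on simulated data with less spread between libraries than was estimated here, so that test does not show the power of these fits. Alternatives ran in limma 3.58.1 and DESeq2 1.42.0 under R 4.3.3; tables and figures came from Python 3.11.15 with scipy 1.17.1, pandas 2.3.3, matplotlib 3.10.9 and numpy 2.4.6. Single values were compared by exact two-sided permutation of the 10 possible assignments of 3 against 2 libraries. Log2 ratios of single libraries have a pseudocount of 0.5 scaled CPM. Depth was 13439408 to 25177102 whole-RNA counts per vesicle library; intervals (95%, Clopper-Pearson) and the floor of 3 counts cover counting error only.

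Members and lists were chosen with earlier results of these data known. Named rows are the called ones, otherwise up to 5 a direction by smallest p; tRNA sums, 4.5S and SINE rows; the rows with most counts of each kind; and at most 2 IDs higher and 2 lower per kind. Gene symbol lists and cell type markers had no match, since 0 transcript IDs could be paired with names, and give no result. Of the tested rows, 187 intron, 158 exon and 31 UTR rows have the counts of another row. Alternatives were other scalings, tools, filters, adjustments and covariates, and leaving out each library.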

Additional observations from a re-analysis of the deposited data

Results flagged for a closer look

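For 18 results, shDis3l2 lay on one side of shNS while Vector and D389N both lay on the other side of Dis3l2r. The value given is the mean of the log2 ratios of Vector and of D389N over Dis3l2r, minus that of shDis3l2 over shNS, and the difference was not tested. It was 0.188 for the share of tRNA rows other than the spliced ones, -0.706 for the transcript share, -0.181 for the intron share, -0.408 for the UTR share and -1.346 for the unspliced share of Arg-TCT. Among tRNA isotype sums it was 0.431 for Ala, 0.52 for Arg, 1.137 for Asn, 0.972 for Gln, 0.951 for His, 0.627 for Ile, 0.751 for Leu, 0.81 for Lys, 0.737 for Met, 0.656 for Pro, 0.698 for Thr, 0.818 for Trp and 1.087 for Val. Both of those pairs rest on the Dis3l2r library, which had the highest TMM factor. Of the 23 isotype sums, 13 showed these opposite sides under TMM and 5 under whole-RNA totals.

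The whole-cell libraries stand outside the comparison. Exon rows held 0.827% of the counts of all rows in shDis3l2 cells, against 0.0375% in shNS cells, 1 library each.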

How the results depend on the processing

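No paired test was run, since each genotype has 1 library and the Vector and D389N pairs share Dis3l2r. The nearest fit, with the line (with or without a second construct) as a covariate, is given here. Scalings other than TMM changed no count of edgeR calls. Whole-RNA rows gave 1 call; DESeq2 gave 2, the line as a covariate 2, no filter 3, and adjustment over all kinds of rows and limma-voom 0 each. Intron rows gave 0 calls; the 3 libraries with a second construct gave 160, DESeq2 132, limma-voom 1, the line as a covariate 25 and no filter 234. Exon rows gave 0; the same alternatives gave 2, 6, 9, 2 and 7. UTR rows gave 1; they gave 11, 15, 2, 2 and 21, and adjustment over all kinds and a minimum of 100 counts gave 0 each. The log2 fold change of Exon_ENSMUST00000156618.8_5 reversed to -1.31 with limma-voom. The cause was not tested.

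Leaving out each library gave 0 to 2 calls for whole-RNA rows, 0 to 266 for intron rows, 0 to 1 for exon rows, 0 to 28 for UTR rows and 0 to 1 for isotype sums; without shNS or Dis3l2r, the lone library with active Dis3l2 is assumed to vary like the others. The log2 ratio of mean shares then ranged from -0.37 to 0.41 for spliced tRNA and from -0.17 to 0.14 for intron rows. For unspliced shares it ranged from -0.028 to 1.19 in Arg-TCT, 0.22 to 0.47 in Ile-TAT and 0.034 to 0.92 in Tyr-GTA, and for intron rows up to 10 scaled CPM from -0.85 to -0.18. Of the summary results, 156 alternative values stayed within the limits set for them and 40 moved. Alternatives on thinning, overlap counts and pairs by scaling, unspliced shares and intron bins were chosen after seeing the data. With 1 library per genotype, the 3 residual degrees of freedom limit the tests. In edgeR the spread was also pooled over the rows of a kind, and for isotype sums the pooled value alone was used.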
